A study of Mus musculus with 20 samples.

Results

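The VEGF and angiopoietin receptors and ligands followed here are 10 genes, namely the VEGF receptors Kdr, Flt1 and Flt4, the coreceptors Nrp1 and Nrp2, the ligand Vegfa, the receptors Tek and Tie1, and the angiopoietins Angpt1 and Angpt2. They were chosen by gene name from a read count table of 34255 genes, and all 10 were present and passed the filter on low counts. The kidneys came from healthy young adult male C57BL6/OlaHsd mice of WT genotype that received no treatment, a description shared by all 5 groups. Laser microdissection of cortex cryosections gave arterioles, glomeruli and post-capillary venules (PCV), cut by their shape on hematoxylin slides, and peritubular capillaries (PTC), cut from a slide stained with the lectin isolectin B4. Whole kidney sections (WK) were the reference. Each group has 4 libraries, which the labels call biological replicates without naming the mouse, and the tests can only measure how far these samples scatter. A dissected segment holds every cell inside the cut outline, including smooth muscle, podocytes or tubule cells next to the endothelium.

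VEGF-A, made in the kidney chiefly by podocytes and tubule cells, signals to neighbouring endothelium through KDR (VEGFR2), the receptor that carries most of its effect on growth, survival and permeability. FLT1 (VEGFR1) binds the same ligand tightly but signals weakly, and its soluble form acts as a decoy. FLT4 (VEGFR3) is the receptor for VEGF-C and VEGF-D of lymphatic and some fenestrated endothelium, and the neuropilins NRP1 and NRP2 are coreceptors that also bind class 3 semaphorins. The angiopoietin receptor TEK (TIE2) keeps vessels quiescent when bound by ANGPT1, which mural and mesenchymal cells release. ANGPT2 is stored in endothelial cells and opposes ANGPT1 in many settings, and TIE1 is an orphan partner of TEK.

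The promoters of Kdr, Flt1 and Nrp1 are shown because Kdr and Nrp1 are the members that differed between compartments and Flt1, the other receptor for VEGF-A, is the one called against WK beside them in glomeruli. Each line gives the 250 bases before the RefSeq start on the gene's strand, in build GRCm38.p6, 5′ to 3′. Capitals mark GGAA or its reverse complement TTCC, the core that ETS family transcription factors bind.
Kdr, chr5:75978456-75978705, minus strand: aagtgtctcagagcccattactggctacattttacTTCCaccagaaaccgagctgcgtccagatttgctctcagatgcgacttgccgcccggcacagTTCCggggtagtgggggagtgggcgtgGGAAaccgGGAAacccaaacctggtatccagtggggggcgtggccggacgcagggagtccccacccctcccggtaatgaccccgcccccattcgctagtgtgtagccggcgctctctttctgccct
Flt1, chr5:147726012-147726261, minus strand: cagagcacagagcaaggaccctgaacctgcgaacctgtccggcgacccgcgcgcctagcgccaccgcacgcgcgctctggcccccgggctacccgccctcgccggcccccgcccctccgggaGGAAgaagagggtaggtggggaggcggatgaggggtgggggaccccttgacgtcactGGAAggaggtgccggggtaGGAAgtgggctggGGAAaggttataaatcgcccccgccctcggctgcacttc
Nrp1, chr8:128358823-128359072, plus strand: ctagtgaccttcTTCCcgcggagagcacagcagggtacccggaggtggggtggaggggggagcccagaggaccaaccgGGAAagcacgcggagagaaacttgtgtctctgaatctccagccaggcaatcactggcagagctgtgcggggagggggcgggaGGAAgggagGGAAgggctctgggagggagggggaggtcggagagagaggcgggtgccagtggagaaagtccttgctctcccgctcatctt
Each of these windows holds 4 matches to GGAA on either strand. That is close to the median of 3 over the 32851 mouse promoters of the same length in the RefSeq table, of which 93.4% hold at least 1 match. The Nrp1 window lies inside the longer GENCODE M21 gene model, which starts upstream of it, but shares no base with its exons. The Kdr window holds 1 match to GATA, or its reverse complement TATC, and the Flt1 and Nrp1 windows none, while 53.6% of all promoters hold one. ACGTG, the core of the hypoxia response element, or its reverse complement CACGT was in none of the 3 windows and in 16.6% of all promoters. These matches describe letters only, and no binding was measured here. In GRCm38, Kdr (ENSMUSG00000062960) occupies chr5:75932827-75978458 and Flt1 (ENSMUSG00000029648) chr5:147561604-147726011, both on the minus strand. Nrp1 (ENSMUSG00000025810) lies on the plus strand at chr8:128358604-128503363. Among the other members, Tek and Tie1 lie on chromosome 4, at chr4:94739289-94874976 and chr4:118471191-118490061, and Vegfa at chr17:46016993-46032369.

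Library totals ran from 4639090 to 12283098 counts. Levels are given as CPM, the usual count rate of a gene relative to the TMM-scaled total of its library, and the values of the 4 libraries of a group follow the order of the numbers that name them in the table, 93, 96, 98 and 100. A single count was worth 0.0685 to 0.213 CPM. By counting error alone, a library with 0 counts of a gene allows up to 0.206 to 0.640 CPM, the level of 3 counts. That limit does not cover loss of molecules or uneven amplification during preparation, so it does not bound the level in the tissue. The 12 pan-endothelial reference genes together took 0.302% ± 0.0653 of the counts in arterioles and 0.194% ± 0.0225 in glomeruli, against 0.0291% ± 0.00182 in WK (SD, n = 4). In PCV they took 0.0672% ± 0.0148 and in PTC 0.0341% ± 0.0101. There 0 of the 11 genes tested passed against WK in either group, where only 0.239% and 0.101% of all genes did. Each PCV library (0.0498% or more) lay above each WK library (0.0310% or less), while PTC (0.0222% to 0.0439%) overlapped WK. Proximal tubule markers took 7.29% ± 0.851 of PTC counts against 4.18% ± 0.156 in WK, podocyte markers 1.10% of glomerular counts against 0.0285%, and smooth muscle markers 2.26% of arteriole counts against 0.0355%. Of the 4 venous markers examined, Nr2f2, Ackr1, Vwf and Plvap, only Ackr1 had at most 3 counts in every library. The paper reports Vwf as an arteriole marker and Plvap as highest in PTC and PCV, so their sum does not measure venous endothelium alone. Together the 4 took 0.0609% ± 0.022996 of counts in arterioles, 0.04999% ± 0.00425 in PCV and 0.0453% ± 0.0118 in glomeruli. In WK they took 0.0302% ± 0.00236 and in PTC 0.0201% ± 0.0149. Of the 3 tested, 1 was higher than WK in arterioles and 0 in glomeruli, PTC or PCV. In such bulk samples, fewer cells of a type and less RNA per cell cannot be told apart.

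Glomeruli held the most Kdr and Nrp1, and these were the receptors that differed among the 4 compartments. Arterioles stood at the other end for Kdr while holding the highest mean Tie1, Tek, Nrp2 and Flt4, of which only Tie1 passed against WK. Flt1 ranged only from 128 to 504 CPM over the 16 dissected libraries and exceeded WK in arterioles and glomeruli. Angpt1 was detected throughout PCV and WK but was at a handful of counts in most libraries of the other compartments. A gene is called here at an adjusted p (FDR, Benjamini-Hochberg over all genes tested) under 0.05 in edgeR's quasi-likelihood test. Among the 4 compartments, 2 of 10 members differed by the test of any difference, Nrp1 (FDR 2.40e-05) and Kdr (6.14e-05), where 11.4% of all 12179 genes tested did. Tie1 followed at FDR 0.0564 and Vegfa at 0.0655, and the remaining 6 had FDR of 0.104 to 0.643.

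**Figure D1:**
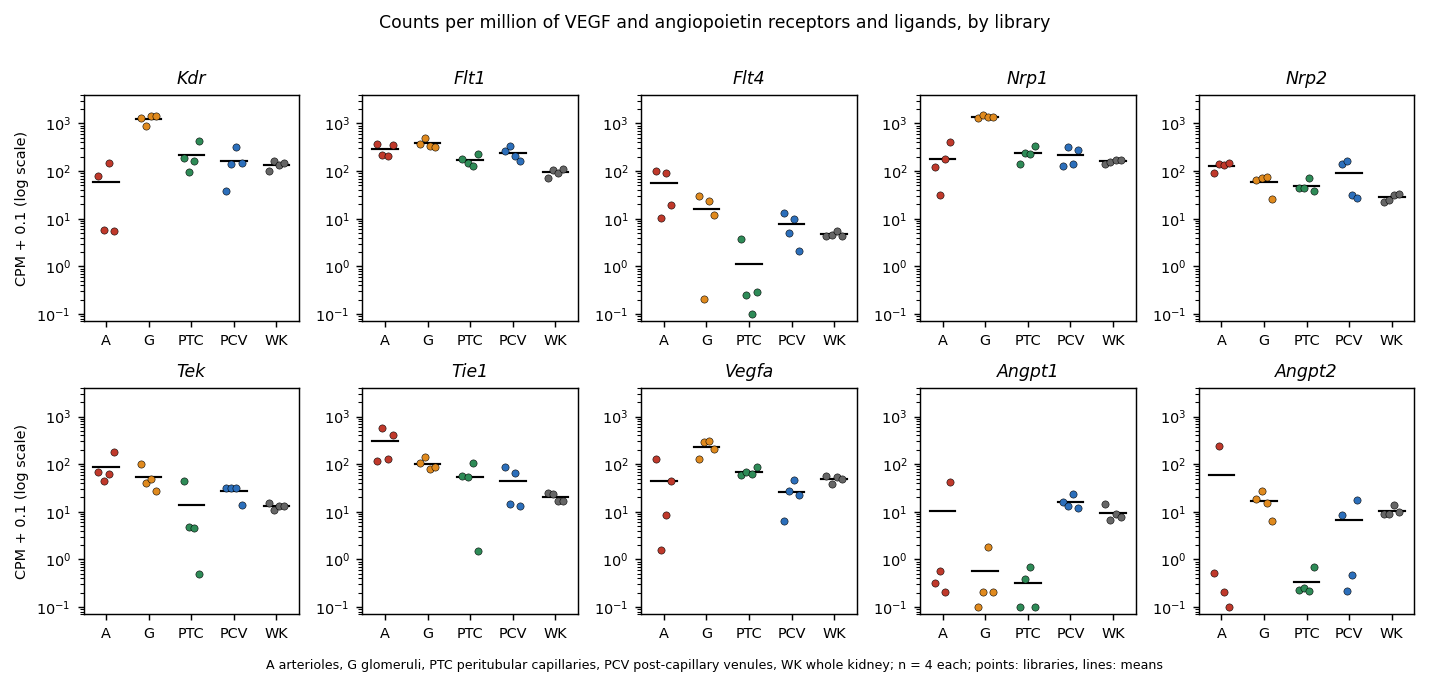
CPM plus 0.1 on a log axis for the 10 members in the 5 groups, named in short as A for arterioles, G for glomeruli, PTC, PCV and WK; points are the 4 libraries of a group and lines their means. Glomerular Kdr and Nrp1 sit at 876 CPM or more, above all other libraries, while Angpt1 falls to a few counts in most arteriole, glomerular and PTC libraries.

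Kdr, the main signalling receptor for VEGF-A, stood at 1297, 876, 1458 and 1411 CPM in the glomerular libraries. It reached 192, 94.99, 162 and 427 CPM in PTC and 37.7, 144, 323 and 149 CPM in PCV. WK held 99.5, 166, 134 and 145 CPM, and arterioles 78.0, 5.80, 145 and 5.53 CPM. All 4 glomerular libraries thus lay above every other library, and the arteriole libraries split into a pair near WK and a pair far below it. The mean of glomeruli was 9.28 times that of WK (log2 fold change 3.21 ± 0.70 SE, FDR 0.00482) and 21.6 times that of arterioles (arterioles minus glomeruli -4.43 ± 0.78, FDR 0.000391). Against PTC the ratio of means was 5.76 (2.53 ± 0.71, FDR 0.0311) and against PCV 7.71 (2.94 ± 0.73, FDR 0.0286). Of the 8 libraries compared, leaving out any 1 of 6 lost each of the latter 2 calls (FDR up to 0.106 and 0.122). The exceptions were glomerular 96 in both, PTC 100 in the first and PCV 98 in the second. Over these refits 2.88% to 3.38% of all genes were called against PTC, where the main fit called 4.49%. Against PCV the share was 0.522% to 0.812%, where the main fit called 1.22%. Both Kdr calls also missed the threshold with RLE size factors (FDR 0.0540 and 0.0548). Below glomeruli the order was PTC, PCV, WK and arterioles, and no neighbours in it passed a test of their difference (FDR 0.967, 1.00 and 0.188). Arterioles against PTC gave -1.90 ± 0.70 (FDR 0.0687) and against PCV -1.49 ± 0.69 (0.189). The PTC contrast passed in several alternatives: without a filter on low counts (FDR 0.0166), with the independent filter (0.00913), with the version 4 form (0.0257), with all 20 libraries (0.0415) and with the column number as a replicate block (-2.30, FDR 0.0254). It did not with DESeq2 (0.129), RLE size factors (0.0860) or only the 8 libraries (0.378).

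Flt1, the decoy-like receptor for the same ligand, had 379, 504, 333 and 317 CPM in glomeruli and 369, 217, 207 and 359.6 CPM in arterioles. PCV held 265, 337, 212 and 162 CPM, PTC 181, 147, 128 and 226 CPM, and WK 73.1, 104, 92.2 and 113 CPM. Every one of the 16 microdissected libraries lay above every WK library, which Kdr did not show. For this and the other gaps between groups given for members, the share of all genes that do the same was not counted. The difference from WK passed in glomeruli (log2 fold change 2.00 ± 0.47, FDR 0.00932) and arterioles (1.59 ± 0.46, FDR 0.0229), and it had FDR 0.293 in PCV (1.35 ± 0.46) and 0.471 in PTC (0.83 ± 0.45). The arteriole call was lost without any 1 WK library (FDR up to 0.0854), and the glomerular call without glomerular 96, WK 93 or WK 98 (FDR up to 0.0644). With 1 of the 8 libraries left out, the log2 fold change ran from 1.40 to 1.72 in arterioles and 1.77 to 2.08 in glomeruli. Without 1 WK library, 5.44% to 5.7% of all genes were called in arterioles, against 11.3% in the main fit. In glomeruli the share was 1.5% to 1.63%, and 1.78% without glomerular 96, against 3.08%. Without a filter on low counts the 2 Flt1 calls stood at FDR 0.0815 and 0.0542. Microdissected libraries were made from less RNA with more PCR cycles than WK libraries, so preparation and tissue cannot be told apart in any comparison with WK. Between compartments, no neighbours in the order glomeruli, arterioles, PCV and PTC passed (FDR 0.743, 0.846 and 0.874).

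Flt4, the receptor of lymphatic endothelium, was the least even of the VEGF receptors. Arterioles held 101, 10.5, 89.7 and 18.9 CPM, glomeruli 29.4, 0.110, 23.9 and 11.9 CPM, and PCV 13.3, 4.98, 10.004 and 2.01 CPM. In PTC it was at 3.73, 0.147, 0 and 0.196 CPM, which is 30, 1, 0 and 1 counts, while WK held 4.15, 4.49, 5.55 and 4.35 CPM. All 4 arteriole libraries lay above WK and 3 of 4 PTC libraries at the floor below it, yet neither difference passed in edgeR (3.57 ± 1.65, FDR 0.126, and -2.16 ± 1.57, FDR 0.658). Arterioles against PTC gave a fitted 5.73 ± 2.05 (FDR 0.0625), and no neighbours in the order of means passed. DESeq2 called Flt4 higher in arterioles than in WK (FDR 0.00983) and PTC (0.000146), and higher in glomeruli than in PTC (0.0310). The 4 lymphatic endothelial markers examined took 0.0296%, 2.62e-05%, 0.00162% and 0.00701% of the counts in the arteriole libraries and 0.00279% ± 0.000284 in WK. Arteriole 93 was highest for both Flt4 and these markers, whereas arteriole 98 had high Flt4 with a share below WK; their part in the result was not tested.

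The coreceptor Nrp1 showed the least spread where it was highest. Glomeruli held 1326, 1473, 1355 and 1389 CPM, with no other library above the 400.1 CPM of arteriole 100. The remaining arteriole libraries had 122, 31.2 and 176 CPM, PTC 141, 236, 232 and 336 CPM, PCV 129, 322, 140.4 and 277 CPM, and WK 143, 158, 172 and 175 CPM. Glomerular means were 8.56 times those of WK (3.10 ± 0.51, FDR 0.000154), and arterioles lay 2.92 ± 0.55 below glomeruli on the log2 scale (FDR 0.000941). The fold change of glomeruli was 2.55 ± 0.54 over PTC (FDR 0.00212) and 2.67 ± 0.54 over PCV (FDR 0.00466). All 4 Nrp1 calls passed without any 1 of the libraries compared. PTC, PCV, arterioles and WK followed in that order, with no neighbours past the test (FDR 0.996, 0.835 and 0.83). Podocyte markers also peaked in glomeruli, where 9 of 10 were higher than WK, as did the glomerular endothelial markers (0.305% of counts against 0.00765%, 1 of 4 genes past the test); their part in the Kdr and Nrp1 results was not tested.

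Nrp2, the coreceptor better known from veins and lymphatics, had its highest mean in arterioles at 126 ± 25.3 CPM (SD, n = 4), with 89.3, 139, 132 and 145 CPM. PCV split into 144 and 162 CPM in libraries 93 and 96 and 31.3 and 26.9 CPM in 98 and 100. Glomeruli held 65.5, 70.4, 74.3 and 26.0 CPM, PTC 43.2, 43.4, 70.5 and 38.3 CPM, and WK 22.3, 24.8, 31.5 and 33.5 CPM. All arteriole and PTC libraries lay above all WK libraries, and no comparison of Nrp2 passed in edgeR. The nearest was arterioles over WK (2.17 ± 0.79, FDR 0.0630), followed between compartments by arterioles over PTC (1.37 ± 0.88, FDR 0.315). The first passed with DESeq2 (FDR 0.000370) and RLE size factors (0.0468), and the second with DESeq2 (0.0498).

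Vegfa, the ligand, was highest in glomeruli at 129.8, 285, 303 and 211 CPM. PTC held 59.4, 67.0, 61.6 and 87.6 CPM, WK 57.01, 38.4, 54.6 and 48.5 CPM, and PCV 6.27, 27.6, 46.5 and 22.5 CPM. Arterioles ranged most widely, with 127, 1.45, 8.32 and 44.6 CPM. Each glomerular library exceeded every library of the other groups, by only 129.8 against 127 CPM at the closest, and PTC lay just above WK without overlap. The fold change of glomeruli over WK was 2.23 ± 0.87 (FDR 0.166), over PCV 3.17 ± 1.01 (FDR 0.128) and over PTC 1.75 ± 0.95 (FDR 0.352), and that of arterioles against glomeruli -2.36 ± 0.97 (FDR 0.181). None passed in edgeR, DESeq2 called glomeruli over PCV (FDR 0.0259), and the order of means was glomeruli, PTC, WK, arterioles and PCV. The arteriole libraries highest in Vegfa, 93 and 100, also held the largest share of glomerular endothelial markers among arterioles (0.0448% and 0.0279%, against 0.00225% and 0.00310% in 96 and 98). Podocyte markers ran otherwise, at 0.0844%, 0.0957%, 0.155% and 0.111% of counts in arterioles 93, 96, 98 and 100, and the part of either list in the spread was not tested.

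Tek, the angiopoietin receptor, stood at 67.1, 43.6, 61.4 and 176 CPM in arterioles and 99.7, 40.7, 47.6 and 27.6 CPM in glomeruli. PCV held 31.8, 31.5, 30.9 and 13.5 CPM, PTC 44.2, 4.72, 4.55 and 0.391 CPM, and WK 14.99, 10.6, 13.4 and 13.1 CPM. Arterioles and glomeruli lay above WK in all 4 libraries, and 3 of 4 PTC libraries below it. Against WK the log2 fold change was 2.74 ± 1.14 in arterioles (FDR 0.0934), 2.05 ± 1.11 in glomeruli (0.409), 1.05 ± 1.08 in PCV (1.00) and 0.05 ± 1.07 in PTC (0.996). Between compartments the smallest FDR was 0.158, for arterioles over PTC. DESeq2 called Tek higher in arterioles than in WK (FDR 0.00588).

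Tie1, the orphan partner of Tek, was highest in arterioles with 115, 562, 130.1 and 403 CPM. Glomeruli held 108, 139, 77.3 and 85.1 CPM, PTC 55.4, 52.7, 104 and 1.37 CPM, PCV 86.0, 14.8, 63.9 and 12.9 CPM, and WK 24.9, 23.6, 16.7 and 16.4 CPM. Arterioles and glomeruli stood wholly above WK, while PTC and PCV reached from below WK to the glomerular range. The mean of arterioles was 14.8 times that of WK (3.89 ± 0.88, FDR 0.00306), a call that held without any 1 of the 8 libraries. Glomeruli over WK gave 2.33 ± 0.83 (FDR 0.119). Arterioles over PTC (2.51 ± 0.90, FDR 0.0616) and over PCV (2.76 ± 0.91, FDR 0.0710) fell short of the threshold. Both passed with RLE size factors (FDR 0.0337 and 0.0454), DESeq2, the independent filter, the version 4 form and all 20 libraries. Neither passed with the replicate block (FDR 0.0575 and 0.0745) or with only the 8 libraries (0.153 and 0.0921). Without a filter on low counts the PTC contrast passed (0.04999) and the PCV contrast did not (0.0523).

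Angpt1, the ligand that activates Tek, was found at 16.1, 13.4, 23.9 and 11.8 CPM in PCV and 14.3, 6.68, 8.70 and 7.65 CPM in WK. Arteriole 100 held 41.4 CPM (232 counts), and the other arteriole libraries 1, 3 and 1 counts. The counts were 0, 1, 22 and 1 in glomeruli and 0, 2, 5 and 0 in PTC, at CPM below every PCV and WK library. The arteriole mean of 10.6 CPM therefore rests on a single library. No comparison passed in edgeR, with FDR 0.344 for PCV against PTC, 0.424 for PCV against glomeruli, and 0.322 and 0.309 for glomeruli and PTC against WK. DESeq2 called these 4 (FDR 0.0133, 0.0411, 0.0410 and 0.0209), as well as arterioles over glomeruli (0.0408) and over PTC (0.00682), where arteriole 100 carries the level. A GENCODE antisense gene, Gm17473, shares 737 exon bases with Angpt1 and had 0 counts in the 20 libraries. Whether counting used strand is not given in the sources read for this work.

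Angpt2, the endothelial ligand that can oppose Angpt1, was found in all WK libraries at 8.71, 8.98, 14.0 and 9.73 CPM. The glomerular libraries spread more widely, at 18.03, 27.3, 15.1 and 6.18 CPM. PCV libraries held 8.51, 0.122, 0.371 and 17.5 CPM, and PTC libraries 1, 1, 1 and 3 counts. In arterioles, library 96 held 236 CPM (1465 counts) and the others 2, 1 and 0 counts. Arterioles were called higher than PTC (FDR 0.0357), but without arteriole 96 the FDR was 0.944, with both groups at or under 3 counts, so the call rests on that library. It was also lost without any 1 PTC library. Arteriole 96 further had the highest Tie1 and the lowest Nrp1, Flt4 and Vegfa of the arterioles, and the largest shares of pan-endothelial (0.358%), arterial endothelial (0.115%) and erythrocyte markers (4.16%); their part in the Angpt2 value was not tested. PTC against WK gave FDR 0.288, with all 4 PTC libraries at or under the level of 3 counts. Angpt2 lies within the gene Mcph1 on the opposite strand, and the annotated exons of the pair share no base.

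Counted by comparison, the members called against WK were 2 of 10 in arterioles, both higher (Tie1 and Flt1), where 11.3% of 13813 genes were called and 5.78% called higher. Glomeruli had 3 of 10, all higher (Nrp1, Flt1 and Kdr), against 3.08% of genes called and 1.59% called higher. In PTC 0 of 10 were called by edgeR, where 0.101% of genes were. There 2 of 10 members, Angpt1 and Angpt2, had an unadjusted p under 0.05, as did 1719 of 13813 genes. DESeq2 called both, and 3.25% of all genes it gave an adjusted p. In PCV 0 of 10 were called by edgeR against 0.239% of genes. Flt1 and Nrp2, 2 of 10, had an unadjusted p under 0.05 there, as did 1293 of 13813 genes. DESeq2 called Flt1, and 2.19% of all genes it gave an adjusted p. The 4 comparisons share the WK libraries and are not independent of one another. The median log2 fold change of the members was 1.88 in arterioles, 2.02 in glomeruli, 0.51 in PTC and 0.76 in PCV, beside medians over all genes of 0.22, 0.25, 0.18 and 0.19. RLE in place of TMM scaling moved the median of all genes by 0.17 to 0.28 in the contrasts with arterioles and by less than 0.1 in the others.

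**Figure D2:**
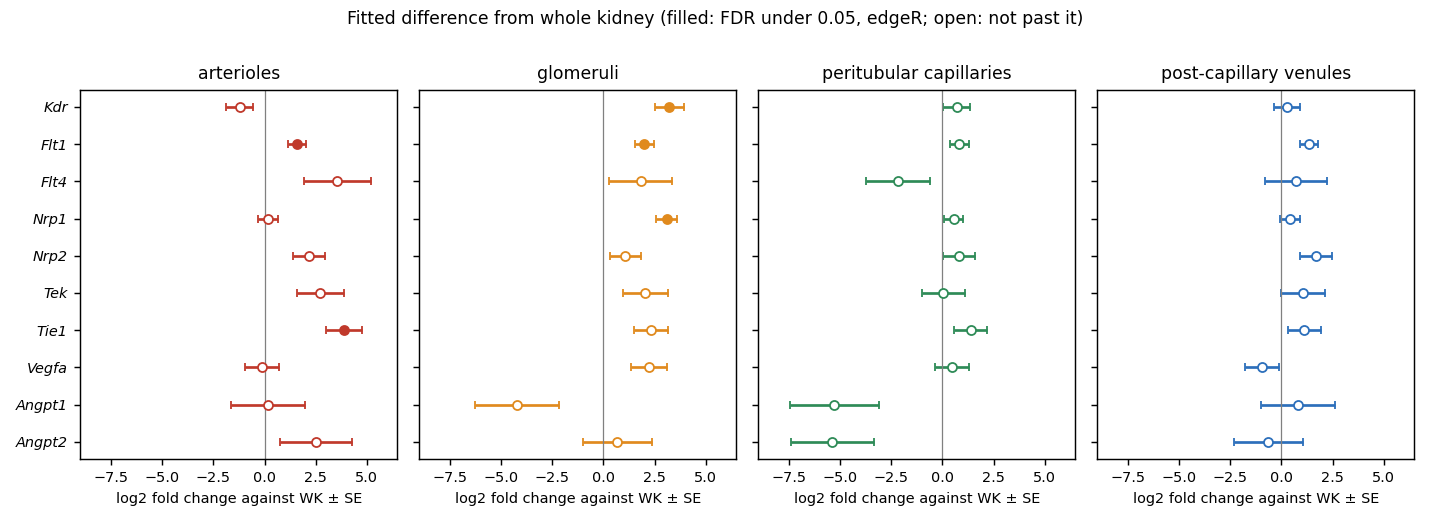
Fitted log2 fold change against whole kidney with its standard error for the 10 members, in 1 panel per compartment; filled points passed an FDR of 0.05 in edgeR and open points did not. Filled points are Flt1 and Tie1 in arterioles and Kdr, Flt1 and Nrp1 in glomeruli, and the widest errors belong to Flt4, Angpt1 and Angpt2.

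Between compartments, arterioles against glomeruli had 2 of 10 called, Kdr and Nrp1, both lower in arterioles, where 2.19% of the 12179 genes were called and 0.862% called lower. Glomeruli against PTC (4.49% of genes called, 2.2% higher) and glomeruli against PCV (1.22%, 0.493% higher) had the same 2 members, both higher in glomeruli. Arterioles against PTC had 1, Angpt2, higher in arterioles, against 11.2% of genes called and 6.22% called higher. Arterioles against PCV had 0 by edgeR (4.38% of genes called). Tie1 and Kdr had an unadjusted p under 0.05 there, as did 2764 of 12179 genes. DESeq2 called Tie1, and 19.2% of all genes. PTC against PCV had 0 by edgeR (0.411%). Angpt1 and Angpt2 had an unadjusted p under 0.05 there, as did 1370 of 12179 genes. DESeq2 called Angpt1, and 6% of all genes. These contrasts share libraries as well. The spread of the members between libraries was wide in the dissected samples: the median coefficient of variation of a member within a group was 0.856 in arterioles, 0.723 in PTC, 0.656 in PCV and 0.359 in glomeruli, against 0.186 in WK.

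Because the share of counts taken by pan-endothelial genes differs between compartments, receptor counts were also set against these 12 reference genes in the same library. Kdr then stood at 82.0 ± 11.7 counts per 100 reference counts in glomeruli, 55.4 ± 11.5 in WK, 49.1 ± 9.38 in PTC, 24.4 ± 15.998 in PCV and 1.78 ± 2.33 in arterioles (SD, n = 4). The 4 arteriole values, 1.73, 0.0878, 5.10 and 0.222, lay below those of every other group, and the 4 glomerular values, 80.1, 66.3, 92.7 and 88.7, above. Nrp1 followed a like order, with 91.7 ± 13.4 in glomeruli, 66.3 ± 9.99 in WK, 63.3 ± 30.5 in PTC, 33.8 ± 17.6 in PCV and 6.36 ± 6.88 in arterioles. Relative to reference counts Flt1 was also lowest in arterioles, at 8.29 ± 4.61, against 25.6 ± 8.45 in glomeruli, 36.4 ± 10.4 in PCV, 39.2 ± 8.81 in WK and 44.5 ± 14.7 in PTC. Its order on this scale differs from that by CPM, where arterioles and glomeruli led.

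**Figure D3:**
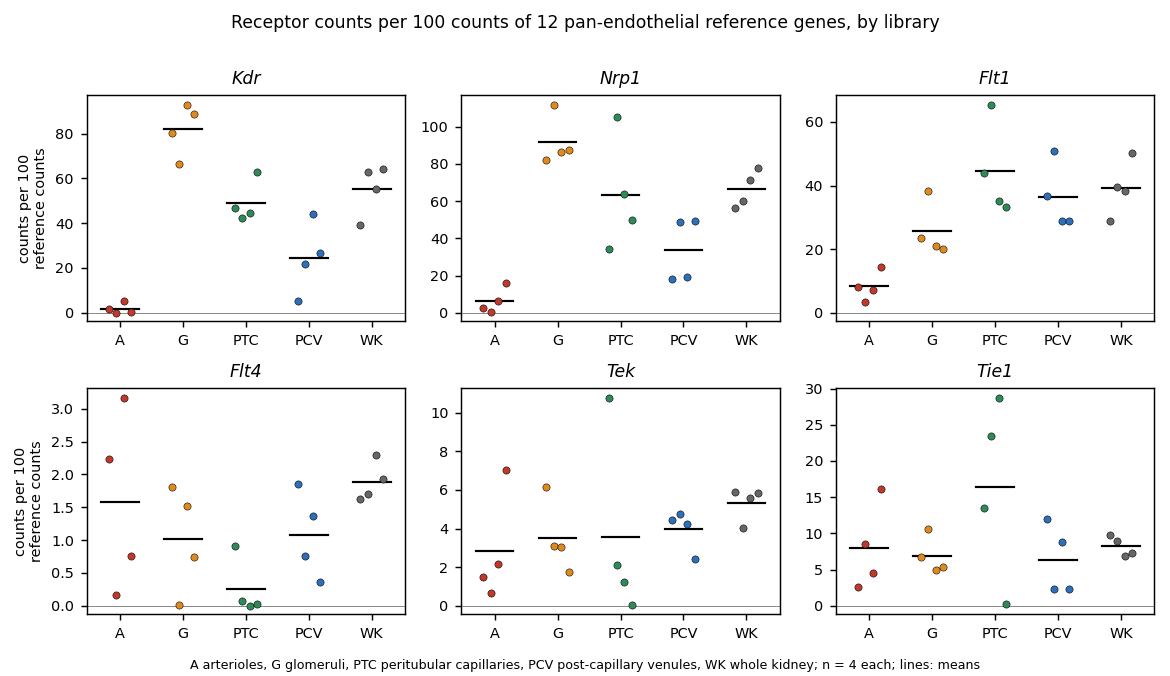
Counts of 6 receptors per 100 counts of 12 pan-endothelial reference genes in each library of the 5 groups, on linear axes; points are libraries and lines means of 4. Kdr, Nrp1 and Flt1 are lowest in arterioles, at means of 1.78, 6.36 and 8.29, and Tek and Tie1 overlap between the groups.

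For Kdr, 7 of the 10 pairs of groups reached the smallest p an exact permutation test of 4 against 4 can give, 0.0286 (two-sided): arterioles lower than each other group, and glomeruli higher than PTC, PCV and WK. The same p was reached by Flt1 for arterioles against each other group. Nrp1 reached it for those 4 pairs and for glomeruli over PCV and WK and PCV under WK, and Flt4 for PTC under WK. Over the 60 comparisons of 6 receptors and 10 pairs the adjusted value of each was 0.0902, so 0 of 60 passed 0.05. Tek stood at 2.84 to 5.33 and Tie1 at 6.31 to 16.5 counts per 100 reference counts as group means, with exact p values of 0.114 or more in all pairs. Arterioles and WK held 7.95 ± 6.005 and 8.24 ± 1.37 for Tie1 (exact p 0.943), a pair that its CPM had set apart. With this smallest p, an adjusted value under 0.05 would need most of the 60 pairs to reach it, so the count of 0 says little. Arterioles had the lowest mean Kdr, Nrp1 and Flt1 also with Pecam1 alone, Pecam1 plus Cdh5, or the list minus Pecam1 as the reference. The order of glomeruli and PTC depended on that choice. Kdr was higher in glomeruli by 32.8 counts per 100 reference counts with all 12 genes, 25.5 with Pecam1 alone and 48.8 without Pecam1. With Pecam1 plus Cdh5 the difference was -37.5. For Nrp1 it was 28.4 with all 12 genes and 43.6 without Pecam1, against -8.24 with Pecam1 alone and -69.5 with Pecam1 plus Cdh5. Cdh5 had only 2, 51, 8 and 2 counts in the PTC libraries, against 457, 746, 1099 and 1144 in glomeruli. Its part in the change of direction was not tested. PTC against WK turned in direction for Kdr and Nrp1 as well with Pecam1 alone or with Cdh5.

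The balance of the receptors for VEGF-A within a library was followed as the share of Flt1 in Flt1 plus Kdr counts. Capture of a 3′ end can differ between genes, so the share is compared only between groups. It was 84.3% ± 18.5 in arterioles (82.6, 97.4, 58.9 and 98.5%), 62.3% ± 20.9 in PCV (87.5, 69.98, 39.6 and 52.1%), 47.0% ± 10.8 in PTC, 41.4% ± 2.23 in WK and 24.0% ± 8.57 in glomeruli (22.6, 36.5, 18.6 and 18.3%). These shares rest on 1381 to 22986 counts a library, and 95% Wilson intervals, which cover counting error only, reached at most 2.36 percentage points to either side. Glomeruli lay below WK, PCV and arterioles, and arterioles above WK, without overlap (exact permutation p 0.0286 each, adjusted 0.0714 over 10 pairs). No pair passed after adjustment, and arterioles and PCV overlapped (exact p 0.200).

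The ligands of Tek were treated in the same way, in libraries with at least 10 counts of Angpt1 and Angpt2 together. Angpt1 made up 65.5, 99.1, 98.5 and 40.2% of the counts of the pair in PCV and 62.1, 42.6, 38.3 and 44.0% in WK. In glomeruli its share was 0, 0.403, 10.2 and 1.75%, from 180, 248, 216 and 57 counts, with 95% Wilson intervals whose upper ends were 2.09, 2.25, 14.9 and 9.29%. Glomerular Angpt1 shares (mean 3.09% ± 4.79) were lower than those of PCV (75.8% ± 28.5) and WK (46.8% ± 10.5), both at exact permutation p 0.0286 and an adjusted value of 0.0429 over 3 pairs, and PCV against WK gave 0.143. With 3 libraries in a group the smallest exact p is 0.0571, so neither call can be tested with a library left out. Both calls also depend on the minimum of 10 counts leaving only 3 pairs. For the Flt1 share the same exact p was adjusted to 0.0714 over 10 pairs. Arterioles had 2 libraries with enough counts, at 0.204% in 96 and 100% in 100, and PTC had none.

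**Figure D4:**
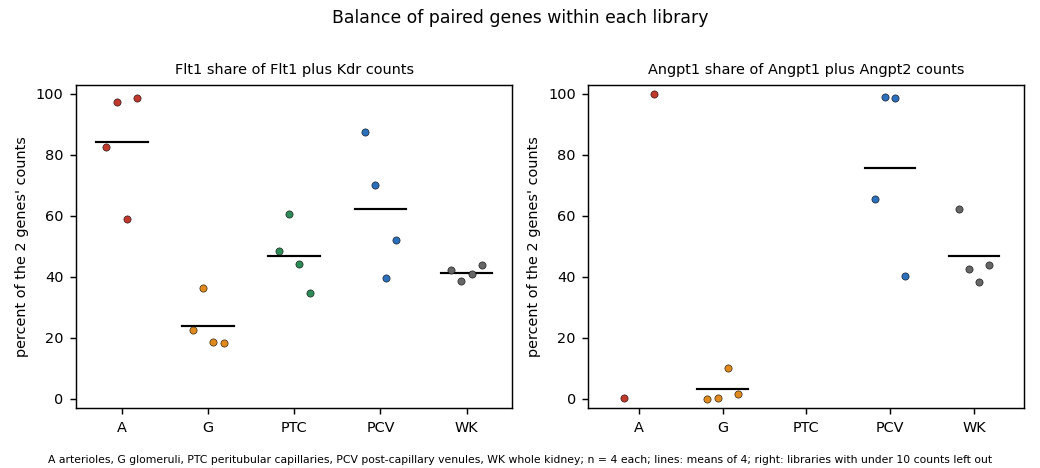
Share of Flt1 in Flt1 plus Kdr counts (left) and of Angpt1 in Angpt1 plus Angpt2 counts (right), in percent, for each library of the 5 groups; lines are means of 4, and libraries with under 10 counts of the pair are left out on the right. Among groups with 4 values, glomeruli have the lowest mean in both panels, 24.0% and 3.09%. On the right, arteriole 96 stands at 0.204% and PTC has no value.

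Other genes of these pathways were followed in 6 lists holding 93 genes, of which 86 were tested against WK and 84 between compartments. In arterioles 23 of 86 (26.7%) differed from WK, 20 higher and 3 lower, beside 11.3% of all genes, with a median log2 fold change of 1.23. In glomeruli 5 of 86 (5.81%) did, all higher (Sema3g, Epas1, Itgb1, Ptprb and Eng), beside 3.08% of all genes, with a median of 1.25. PTC had 0 of 86 by edgeR, beside 0.101% of all genes, at a median of 0.10. PCV had 2 (2.33%), Ptprb higher and Unc5b lower, beside 0.239% of all genes, at a median of 0.45. Among the 4 compartments 14 of 84 differed (16.7%), beside the 11.4% of all genes given above.

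Of the receptor partners, Ptprb (VE-PTP), the phosphatase that dampens TEK and KDR signalling, held 853 ± 176 CPM in arterioles, 335 ± 105 in glomeruli, 259 ± 96.6 in PCV, 63.0 ± 40.7 in PTC and 42.5 ± 7.63 in WK (SD, n = 4). It exceeded WK in arterioles (log2 fold change 4.33 ± 0.59, FDR 1.97e-06), glomeruli (2.98 ± 0.55, FDR 0.000742) and PCV (2.61 ± 0.55, FDR 0.0153), the last lost without PCV 96 or any 1 WK library. PTC held less than arterioles (FDR 4.19e-05) and glomeruli (FDR 0.00828). The integrin subunit Itgb1 ran from 1084 ± 501 CPM in arterioles and 742 ± 106 in glomeruli to 244 ± 43.3 in PCV and 233 ± 55.6 in PTC. Cdh5, the junction protein that associates with KDR and is also 1 of the reference genes, and Itgb3 differed among the compartments too (FDR 0.00572 and 0.00877). Of the 12 partners tested, 6 passed against WK in arterioles, 3 in glomeruli, 1 in PCV and 0 in PTC, where 11.3%, 3.08%, 0.239% and 0.101% of all genes were called.

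Among the semaphorins, which share the neuropilins as receptors, Sema3g stood at 947 ± 231 CPM in glomeruli and 795 ± 286 in arterioles, well above the 50.9 ± 39.8 of PCV, 20.6 ± 1.59 of WK and 15.03 ± 7.58 of PTC. Arterioles and glomeruli each differed from WK (FDR 1.24e-07 and 1.64e-07), from PTC (1.17e-07 and 2.44e-07) and from PCV (5.70e-05 and 4.91e-05), and their difference from each other had FDR 0.871. Sema3e, which signals through Plxnd1 without needing a neuropilin, had 23.8, 44.5, 9.97 and 62.3 CPM in glomeruli and at most 1.21 CPM in the other dissected libraries (any difference FDR 0.0138, 0.0642 without glomerular 100), with 2.10 ± 0.678 in WK. Plxna3, a plexin coreceptor, had 9.96 ± 10.97 CPM in glomeruli and 0 counts in all PTC and PCV libraries (FDR 0.0201, lost without glomerular 96 or PTC 100 at up to 0.0516).

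**Figure D5:**
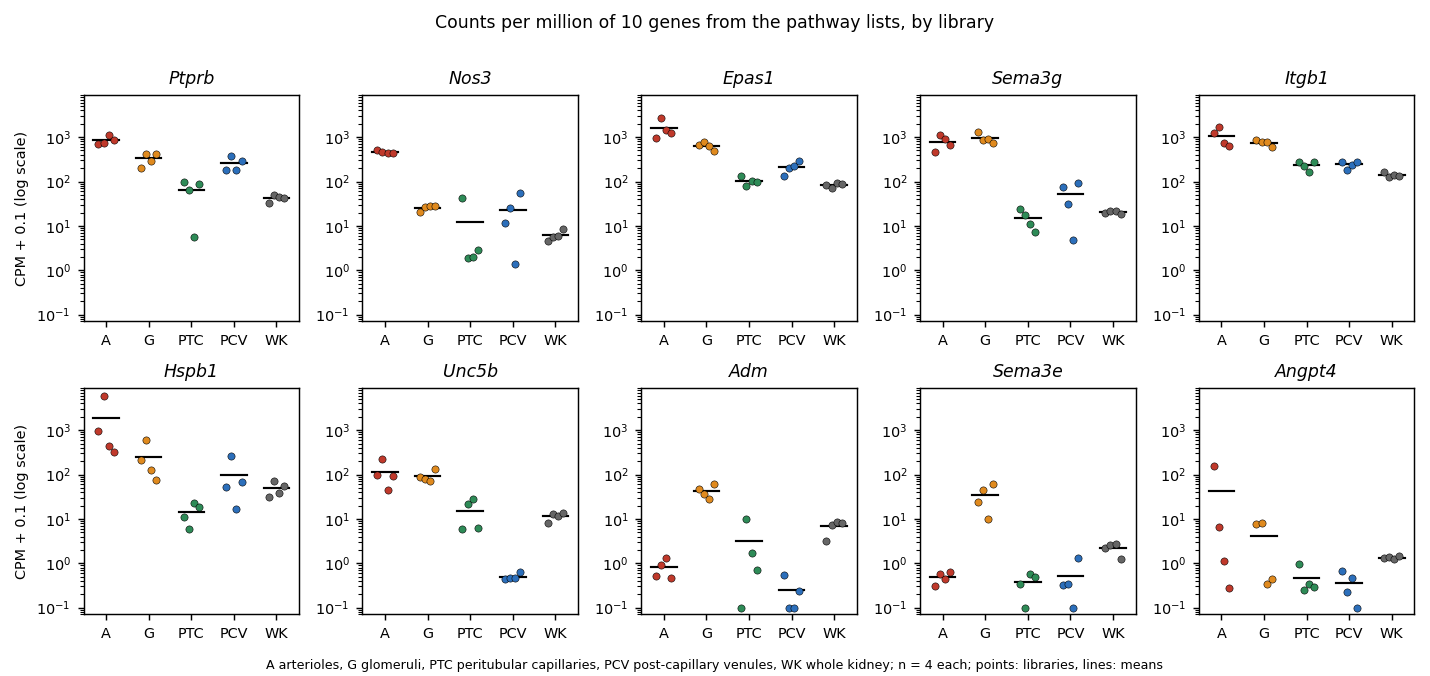
CPM plus 0.1 on a log axis for 10 genes of the pathway lists in the 5 groups; points are libraries and lines means of 4. Nos3 is highest in arterioles at 464 CPM, Sema3g in arterioles and glomeruli at 795 and 947 CPM, and Sema3e and Adm in glomeruli at 35.2 and 42.6 CPM.

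In receptor signalling, Nos3, the endothelial nitric oxide synthase that AKT activates downstream of KDR, held 526, 462, 440.2 and 428 CPM in arterioles. It was 25.7 ± 3.50 CPM in glomeruli, 23.0 ± 22.8 in PCV, 11.9 ± 19.6 in PTC and 6.06 ± 1.54 in WK. Arterioles differed from WK (6.26 ± 1.04, FDR 6.15e-05), glomeruli (4.17 ± 1.00, FDR 0.0140), PTC (FDR 0.000718) and PCV (FDR 0.00776), the glomerular contrast being lost without any 1 glomerular library (FDR up to 0.0585). Hspb1, a small heat shock protein phosphorylated after VEGF, held 948, 5934, 437 and 314 CPM in arterioles, with means of 252 ± 233 in glomeruli and 14.5 ± 7.58 in PTC. Its difference between arterioles and glomeruli (FDR 0.0283) was lost without arteriole 96 (FDR 0.364) or without glomerular 93, 98 or 100. Arterioles over WK passed for 10 of 38 signalling genes and 1 was lower, beside 11.3% of all genes called there. In glomeruli, PTC and PCV 0 of 38 passed in either direction by edgeR, beside 3.08%, 0.101% and 0.239% of all genes.

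The hypoxia regulator Epas1 (HIF-2α), a transcription factor prominent in endothelium, held 1598 ± 800.1 CPM in arterioles, 645 ± 117 in glomeruli, 213 ± 65.2 in PCV, 104 ± 23.8 in PTC and 83.8 ± 9.50 in WK. It passed against WK in arterioles (4.25 ± 0.43, FDR 3.48e-09) and glomeruli (2.94 ± 0.40, FDR 5.86e-06). Of the 6 hypoxia regulators tested it was the only gene to do so in either, beside 11.3% and 3.08% of all genes. Of 12 genes known to respond to VEGF in endothelium, 2 passed against WK in arterioles, Unc5b and Mmp14, both higher, where 5.78% of all genes were called higher; the first was lost without arteriole 96 or any 1 WK library (FDR up to 0.0836). In PCV 1 passed, Unc5b, and 0 in glomeruli and PTC by edgeR, beside 0.239%, 3.08% and 0.101% of all genes. Unc5b, a netrin receptor of arterial and sprouting endothelium, was at 117 ± 79.1 CPM in arterioles, 91.7 ± 27.5 in glomeruli, 15.2 ± 10.99 in PTC and 11.4 ± 2.56 in WK. In PCV it was at 0.336, 0.365, 0.371 and 0.536 CPM, at or near the level of 3 counts, and below all other groups; the FDR was 0.000248 against arterioles, 0.000792 against glomeruli, 0.0434 against PTC and 0.0347 against WK, the last lost without any 1 of the 8 libraries and the PTC contrast without any 1 of 6.

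Among the other ligands, Vegfb, a ligand of Flt1, was found in all groups at 43.6 ± 6.90 CPM in WK, 44.8 ± 3.85 in PCV, 54.2 ± 20.2 in glomeruli, 73.8 ± 60.3 in arterioles and 141 ± 139 in PTC. Vegfd, a ligand of Flt4, had 11.9 ± 1.83 CPM in WK and ranged from 0 to 220.0 CPM over the dissected libraries. Vegfc, the other Flt4 ligand, had 15.4, 0, 64.6 and 9.28 CPM in arterioles and at most 3.19 CPM elsewhere. Pgf, a ligand of Flt1, had 25.9 and 93.6 CPM in glomerular 98 and 100 and at most 0.822 CPM in every other library, and it did not pass the filter on low counts. None of Vegfb, Vegfc and Vegfd passed in any comparison. Angpt4, a further angiopoietin that binds Tek, reached 159 CPM in arteriole 93 (other arterioles 6.44, 1.01 and 0.178 CPM), and its any-difference FDR of 0.0417 was lost without any 1 of 12 of the 16 libraries. Adm, the peptide adrenomedullin, stood at 47.6, 35.9, 27.3 and 59.7 CPM in glomeruli, above all other libraries, the next being 9.88 CPM in PTC 96 (any difference FDR 0.0261, lost without glomerular 93, 96 or 100 at up to 0.0769).

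Genes whose log2 CPM followed a member most closely over the 16 dissected libraries are given as a description, since the points share compartment, depth and preparation. Kdr was followed most closely by Raph1 (Pearson r 0.905), Arap2 (0.903) and Ildr2 (0.858). For Nrp1 the nearest were Clic5 (0.896), Myom2 (0.867) and Ehd3 (0.864), and Ehd3, a membrane trafficking protein of glomerular endothelium, was also nearest to Vegfa (0.850). Tek was closest to Vasp (0.901) and Tie1 to Trpc1 (0.899), Emilin1 (0.892) and Rai14 (0.887). The nearest genes of Flt1 were Rgs3 (0.869) and Adamtsl4 (0.854), of Flt4 Tamalin (0.914), of Nrp2 Ica1 (0.816), of Angpt1 Ap1m2 (0.889) and of Angpt2 Zfp691 (0.871).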

How the data were processed

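The members and gene lists were chosen with earlier results of these data known. Total RNA of 20 mouse kidney samples was made into QuantSeq FWD 3′ mRNA libraries, which read each transcript near its 3′ end, with a low-input protocol and more PCR cycles for the microdissected samples. Reads were trimmed (bbduk), aligned to GRCm38.p6 (STAR 2.7) and counted per gene (HTSeq 0.13) by the authors (versions per the submitters' processing notes, which also list GRCm39 and featureCounts without a role). No source read here gives the strand setting or says whether molecular identifiers were counted.

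The deposited values are raw counts, made by the authors. The table has 34255 genes and 168 sample columns, of which 148 were not used, besides 3 header lines; 561 genes have no symbol. Column headers gave each library's group but not its labelled replicate, and the column of PTC 96 carries letters whose meaning is not given. No 2 libraries were identical. Totals of 4639090 to 12283098 counts set the precision, and intervals cover counting error only.

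Counts were fitted in R 4.3.3 with edgeR 4.0.16 (TMM, filterByExpr, quasi-likelihood F test of the kind used before version 4, Benjamini-Hochberg over all genes), using 20 libraries and 13813 genes against WK and 16 libraries and 12179 genes between compartments. Scripts were tested on simulated data. Ratios and shares were compared with two-sided exact permutation tests (scipy 1.17.1). Alternatives were RLE size factors, no low-count filter, an independent filter, the version 4 form, DESeq2 1.42.0, other sets of libraries, a replicate block and leaving out each library. Over the 24 pairs of libraries of different compartments that share a number, deviations from group means correlated at -0.0135 to 0.0308. The numbers were not taken as pairs in the main fits, but such values cannot show that the mice differed. The paper cut arterioles, glomeruli and venules of a mouse from the same slide and PTC from another. Compartments may therefore share mice, which the main fits ignore.

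Named were all 10 members, up to 4 genes of each pathway list with the smallest any-difference p past FDR 0.05, Ptprb and the further VEGF and angiopoietin ligands, and up to 3 genes most like each member by Pearson r. A gene of the signalling list that met this rule is not reported here. Genes named in counts of 5 or fewer, and marker lists beside a result, were chosen after their values were seen. Promoter sequences are from RefSeq in GRCm38.p6 (8 of 10 members matched), and gene positions from GENCODE M21, counted from 1.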

Additional observations from a re-analysis of the deposited data

Results flagged for a closer look

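In 11 of 93 groups of 4 values examined, 1 library stood far from the other 3 by Dixon's 95% criterion. Normally distributed values meet it in about 1 group in 20. CPM and shares can be skewed or rest on a few counts, so the 11 cannot be set against that rate. Among arterioles the flagged values were Angpt2 in library 96 (236 CPM) and Angpt1 in library 100 (41.4 CPM). The other arteriole libraries held 3 counts or fewer of each gene. Among PTC they were Tek in library 93 (44.2 CPM), Flt4 in library 93 (3.73 CPM, and 0.907 per 100 pan-endothelial reference counts), Nrp2 in library 98 (70.5 CPM) and Angpt2 in library 100 (0.587 CPM, or 3 counts against 1 in each of the others). In glomeruli Angpt1 was high in library 98 (1.71 CPM, or 22 counts), and in PCV Tek was low in library 100 (13.5 CPM). Total counts were high in glomerular 98 (9792824) and low in PCV 98 (4639090). For glomerular 98, the deepest library of its group, Angpt1 counts in the others were 0, 1 and 1, and the part of depth in this value was not tested.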

How the results depend on the processing

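Against WK, 5 of 40 tests of members passed. The count was 3 without a filter on low counts, 10 with the version 4 form of the quasi-likelihood fit and 12 with DESeq2. It was 15 when only the 8 libraries compared were fitted, and 3 to 7 when 1 library was left out. Among all genes, 11.3% were called in arterioles against WK, and 4.63%, 19.6%, 28.7% and 27.9% under the first 4 of these settings. In glomeruli the shares were 3.08%, then 1.61%, 8.06%, 7.45% and 23.1%. In PTC they were 0.101%, then 0.168%, 0.224%, 3.25% and 11.3%. In PCV they were 0.239%, then 0.223%, 0.391%, 2.19% and 8.94%. With 1 library left out the shares were 5.44% to 13.9% in arterioles and 1.5% to 4.79% in glomeruli. In PTC they were then 0.0488% to 0.23%, and in PCV 0.0984% to 0.348%. Between compartments 7 of 60 passed, against 11 with the independent filter, 13 with version 4, 15 with DESeq2 and 11 with all 20 libraries in the fit. With 1 library left out the count was 5 to 8. The share of all genes called rose in every pair under the first 4 of these settings. In arterioles against PTC it was 11.2%, then 16.6%, 18.5%, 27.1% and 19.6%, and in glomeruli against PCV 1.22%, then 16.3%, 2.96%, 6.26% and 2.16%. For any difference among compartments 2 of 10 members passed, against 5 without a filter, 5 with the independent filter, 6 with version 4 and 6 with DESeq2. With 1 library left out it was 2 to 4. Among all genes 11.4% passed this test, against 16.6%, 24%, 23% and 24.2% under the first 4 of these settings. The cause of these moves was not tested. Version 4 kept all 12 calls and added 11, among them Vegfa in glomeruli over WK, PCV and arterioles and Tek, Flt4 and Nrp2 in arterioles over WK. DESeq2 kept 10 of the 12: Kdr in glomeruli over PTC had FDR 0.0599, and Angpt2 in arterioles over PTC was given no adjusted p.

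With the number in the column names as a replicate block the counts were 5, 7 and 2, and 11 of 12 calls were kept; Angpt2 in arterioles over PTC had FDR 0.513. The block added 1 call, Kdr in arterioles under PTC (-2.30, FDR 0.0254), so equal counts hide 1 call lost and 1 gained. Nothing in the labels pairs the libraries, though the paper describes collecting the compartments mouse by mouse. With 1 library left out the Angpt2 log2 fold change of arterioles over PTC ran from -0.37, without arteriole 96 and with both groups then at or under 3 counts, to 8.65. It was the only one of the 12 called values to change sign under any alternative run, and of the values not called at most 6 of 88 did in any 1 setting. Passed tests of receptors per reference count, of the Flt1 share and of the Angpt1 share numbered 0, 0 and 2, and with 1 library left out 0 to 0, 0 to 0 and 0 to 2, where 3 libraries against 4 cannot reach an exact p under 0.0571.

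The limits are 4 libraries a group, wide spread in dissected samples, and values at or near 3 counts for Angpt1, Angpt2 and Flt4 in several libraries. WK libraries were prepared another way, which cannot be told apart from tissue.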
